A study of Homo sapiens with 28 samples.

Results

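The 8 genes described here encode cyclins and proteins of mitosis: the cyclins CCND1, CCNA2 and CCNB1, the kinases PLK1 and AURKA, the anaphase activator CDC20, and the chromosome proteins TOP2A and MKI67. They were picked by identifier, with earlier results of these data known, and are 8 of the 34139 genes with at least 1 read in the libraries analysed. All 8 passed the filter on low counts. The same symbols were looked up among the authors' degradation rate constants, where 5 of the 8 were listed.

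Cyclins bind cyclin-dependent kinases and switch them on in turn: D-type cyclins in G1, cyclin A in S phase and G2, and cyclin B at the entry into mitosis. PLK1 and AURKA then drive centrosome maturation and spindle assembly, and CDC20 directs the anaphase-promoting complex to cyclin B and securin so that chromosomes separate. Most genes of this class are repressed in resting cells and transcribed from S phase to mitosis, under complexes that read a CHR element, often beside CCAAT boxes bound by NF-Y, while CCND1 answers to growth signals and its mRNA is short-lived.

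The promoters of the members that moved furthest between the compared samples are shown: PLK1 and CDC20, which moved downward, and TOP2A and CCNA2, which moved upward. They were picked by the same values that are reported below. Each line gives the 170 bases before the annotated transcription start, from RefSeq on GRCh38.p14, 5′ to 3′ on the strand of the gene. Capitals mark CCAAT or its reverse complement ATTGG, and the CHR core TTTGAA or its reverse complement TTCAAA.
PLK1, chr16:23678719-23678888, plus strand: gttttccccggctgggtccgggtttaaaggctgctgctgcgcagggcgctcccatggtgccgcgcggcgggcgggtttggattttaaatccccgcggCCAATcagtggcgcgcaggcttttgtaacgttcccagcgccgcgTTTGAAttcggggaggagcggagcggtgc
CDC20, chr1:43358811-43358980, plus strand: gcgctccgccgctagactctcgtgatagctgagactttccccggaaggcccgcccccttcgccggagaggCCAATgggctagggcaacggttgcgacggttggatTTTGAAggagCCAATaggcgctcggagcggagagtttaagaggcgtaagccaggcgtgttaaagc
TOP2A, chr17:40417897-40418066, minus strand: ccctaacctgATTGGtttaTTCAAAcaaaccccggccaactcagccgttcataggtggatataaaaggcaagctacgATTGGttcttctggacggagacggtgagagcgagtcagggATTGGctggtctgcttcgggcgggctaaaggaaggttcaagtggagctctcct
CCNA2, chr4:121823884-121824053, minus strand: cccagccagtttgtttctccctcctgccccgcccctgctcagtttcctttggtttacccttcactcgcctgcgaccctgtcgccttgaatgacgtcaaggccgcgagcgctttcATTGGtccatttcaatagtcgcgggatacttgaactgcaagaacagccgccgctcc
Over 170 bases, 8.49% of the 35116 promoters in the table held a TTTGAA on either strand, 25.4% held a CCAAT and 2.42% held both. PLK1, CDC20 and TOP2A held both motifs and CCNA2 held only the CCAAT. Only these exact letters were searched, so a CHR element spelled otherwise would be missed, in CCNA2 as in the others. The part of the promoters in the differences between samples was not tested. In PLK1 the TTTGAA ran from 29 to 24 bases before the start and the CCAAT from 73 to 69. In CDC20 the TTTGAA lay 65 to 60 bases before the start, between CCAATs at 100 to 96 and at 55 to 51. MKI67 also held both motifs in this window, and CCNB1 held only CCAAT. A match of letters is a description and does not show binding. CCND1 and AURKA were not listed in the promoter table.

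The cells were HEK 293T, a transformed human embryonic kidney line labelled wild type (WT) and used here as 1 line with no other cell type. They were given 100 µM 4-thiouridine (s4U) for 2 h, or none, and total RNA was sequenced by nucleotide-recoding RNA-seq (NR-seq), in which s4U taken up into new RNA is converted so that it reads as C in place of T. The conversion chemistries were NaIO4 with TFEA at pH 5.2, iodoacetamide, and OsO4 with NH3, and each was run under drop-out conditions (DO) and under improved handling (IH), which the series describes as RNA collection and data processing that limit the loss of labelled RNA. Each chemistry and handling had 2 labelled libraries and 1 unlabelled library, giving 12 groups and 18 libraries. The labels do not say what the handlings differed in step by step, nor that duplicates came from separate cultures, so p-values measure only the spread between these libraries, which may be technical. Identifiers of marker genes of the line were not paired with symbols in the tables used here, so the line was not checked against markers.

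Depth ran from 1935777 to 9962345 reads per library. Between 17.5% and 41.5% of a library's reads named no gene, with more under DO (33.1% to 41.5% of the labelled libraries) than under IH (18.4% to 25.7%). With HISAT-3N, the main alignment, the intronic part of all gene reads was 26.7% to 35.2% where labelled RNA was handled by DO. It was 42.1% to 51.8% where labelled RNA was handled by IH. Both shares moved with handling, and their part in the results below was not tested. Exonic reads per library ran from 10 to 523 for CCNA2, from 16 to 186 for CCND1, from 21 to 138 for AURKA and from 452 to 4268 for MKI67. The lowest single value of the members was in CCNA2 and the highest in MKI67. No more than 6 reads of any member were ambiguous with another gene over all 18 libraries.

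Between handlings, the labelled libraries differed most in PLK1 and CDC20, which were lower under IH, and in TOP2A and CCNA2, which were higher. Levels are given as CPM, exonic counts relative to the library's total after TMM scaling, and differences as log2 of IH over DO from edgeR's quasi-likelihood test averaged over the chemistries. In bulk RNA, fewer cells expressing a gene, less RNA per cell and less RNA recovered under a handling cannot be told apart. With an adjusted p under 0.05 as the threshold, 5 of the 8 members were called, against a background of 80.6% of all 12449 genes tested, so a call alone does not set a member apart. Of all genes, 46.7% were higher and 33.9% lower under IH, and the median gene lay at a log2 of 0.44. This zero point depends on the scaling: without TMM the median was 0.995, and 6991 genes were called higher and 3031 lower in place of 5813 and 4220. Relative to the median, the members' differences were nearly the same under both scalings, such as -3.16 and -3.17 for PLK1 and 1.83 and 1.81 for TOP2A.

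**Figure D1:**
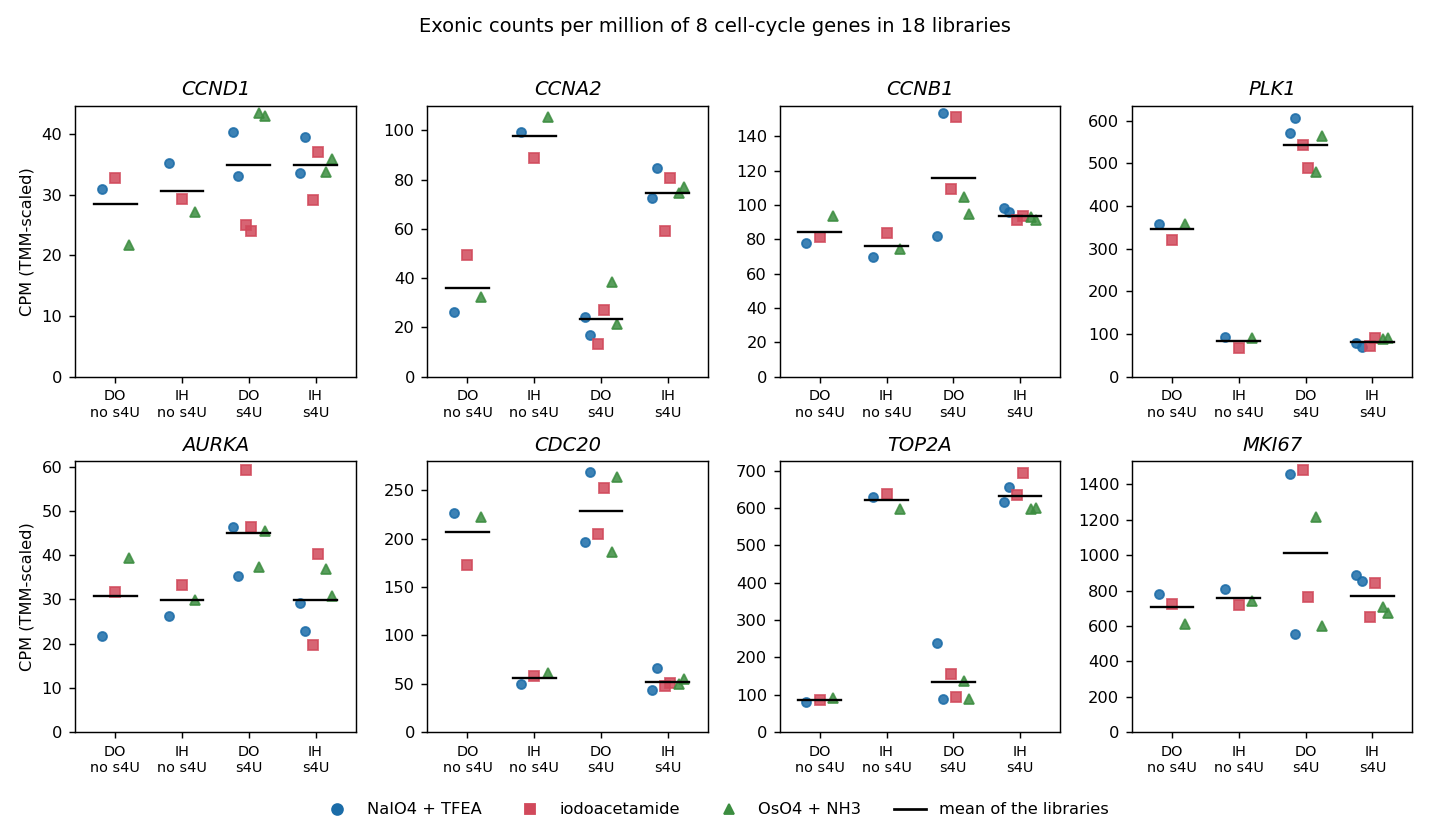
Exonic CPM of each member (vertical axis, linear from 0) in the 18 libraries, grouped by handling and label on the horizontal axis, with marker shape and colour for the chemistry and a bar at the mean. PLK1 and CDC20 sit lower in every IH library than in every DO library, and TOP2A and CCNA2 sit higher.

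PLK1, the kinase that promotes mitotic entry and spindle assembly (identifier ENSG00000166851, chromosome 16, 23678889 to 23690367 in RefSeq on GRCh38.p14), had the largest TMM-scaled difference of the 8 in labelled libraries. Its CPM ran from 479 to 607 with a median of 554 in the 6 labelled DO libraries, and from 68.6 to 91.2 with a median of 84.3 in the 6 labelled IH libraries. The groups were far apart, and no IH library came near the DO range. Of all genes, 25.3% had every labelled IH library below every labelled DO library. The log2 difference was -2.72 (SE 0.12; edgeR, adjusted p = 6.14e-14), which is 6.60-fold lower under IH and at the 0.860 percentile of all genes. Within chemistries it was -2.98 with TFEA, -2.65 with iodoacetamide and -2.54 with OsO4. Relative to the median gene it was -3.16. Without TMM it was -2.17, which is smaller than the 2.81 of TOP2A.

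CDC20, which activates the anaphase-promoting complex (ENSG00000117399, chromosome 1, 43358981 to 43363203), was also lower under IH. Its CPM was 187 to 269 with a median of 229 under DO and 43.7 to 65.9 with a median of 50.2 under IH. Again every IH library was below every DO library, as for 25.3% of all genes. The log2 difference was -2.14 (SE 0.15; edgeR, adjusted p = 3.84e-11), or -2.58 relative to the median gene, and at the 4.16 percentile of all genes. By chemistry it was -2.11 with TFEA, -2.23 with iodoacetamide and -2.09 with OsO4. AURKA, the kinase of centrosome and spindle pole (ENSG00000087586, chromosome 20, 56369390 to 56392215), differed far less. Its CPM was 35.2 to 59.2 (median 45.9) under DO and 19.7 to 40.3 (median 29.9) under IH, and these ranges overlapped. AURKA was lower by the test (log2 -0.55, SE 0.20; edgeR, adjusted p = 0.0146), but the call ended without the iodoacetamide IH replicate 1 (log2 -0.43, adjusted p = 0.0585) and without TMM (log2 -0.0012, adjusted p = 0.997). It rested on 21 to 94 exonic reads per labelled library.

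TOP2A, the topoisomerase that untangles sister chromatids (ENSG00000131747, chromosome 17, 40388525 to 40417896), moved the other way. Its CPM was 88.4 to 238 with a median of 116 under DO and 597 to 694 with a median of 626 under IH. The IH libraries lay close together and all above the DO libraries, as was the case for 34.7% of all genes. The log2 difference was 2.27 (SE 0.18; edgeR, adjusted p = 1.97e-10), which is 4.81-fold, 1.83 above the median gene and at the 82.2 percentile of all genes. By chemistry it was 1.95 with TFEA, 2.45 with iodoacetamide and 2.40 with OsO4. The DO libraries themselves were spread: the highest, TFEA replicate 1, had 238 CPM and TFEA replicate 2 had 89.5. MKI67, the Ki-67 protein that coats mitotic chromosomes and marks proliferating cells (ENSG00000148773, chromosome 10, 128096659 to 128126423), did not pass the test. Its CPM was 552 to 1484 (median 991) under DO and 650 to 891 (median 775) under IH, with the narrower IH range inside the DO range. Under DO, replicate 1 and replicate 2 had 1459 and 552 CPM with TFEA, 1484 and 764 with iodoacetamide, and 1218 and 598 with OsO4, so replicate 1 was higher in each chemistry. The labels do not tie these replicate numbers to a shared culture or day, but same-numbered DO libraries deviated together across genes (r from 0.195 to 0.237 between chemistries). Their sums over chemistries, 2 against 2, gave MKI67 a log2 of -0.68 (edgeR, adjusted p = 0.0570). The same sums gave adjusted p-values by edgeR of 3.44e-05 for PLK1, 4.54e-05 for CDC20, 0.000366 for TOP2A and 0.000626 for CCNA2, so these calls held. The log2 difference of MKI67 was -0.40 (SE 0.20; edgeR, adjusted p = 0.0680), and it passed the threshold without any 1 of the DO replicates 2: -0.73 without that of TFEA, -0.66 without that of iodoacetamide and -0.69 without that of OsO4. It shrank to -0.22 without TFEA DO replicate 1 (edgeR, adjusted p = 0.237) and to -0.19 without OsO4 DO replicate 1 (adjusted p = 0.351).

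Among the cyclins only CCNA2 was called. CCNA2, the S and G2 cyclin (ENSG00000145386, chromosome 4, 121816444 to 121823883), had 13.2 to 38.4 CPM (median 22.9) under DO and 59.2 to 84.6 (median 75.9) under IH. Every IH library was above every DO library, as for 34.7% of all genes. The log2 difference was 1.64 (SE 0.20; edgeR, adjusted p = 1.04e-07), or 1.20 above the median gene, from only 10 to 55 exonic reads per labelled DO library. This difference was at the 70.7 percentile of all genes. CCNB1, the cyclin of mitotic entry (ENSG00000134057, chromosome 5, 69167150 to 69178245), had 81.8 to 153 CPM (median 107) under DO and 91.1 to 98.3 (median 93.4) under IH. The IH libraries lay inside the DO range. The log2 difference of CCNB1 was -0.30 (SE 0.16; edgeR, adjusted p = 0.0786). It passed the threshold without TFEA DO replicate 1 (-0.55), iodoacetamide DO replicate 1 (-0.51) or OsO4 DO replicate 2 (-0.48), and with same-numbered libraries summed (-0.62, adjusted p = 0.0289), while without TMM it was 0.26. CCND1, the G1 cyclin (ENSG00000110092, chromosome 11, 69641156 to 69654474), had 24.1 to 43.6 CPM (median 36.7) under DO and 29.1 to 39.5 (median 34.8) under IH. These ranges overlapped almost wholly, and the log2 difference was 0.04 (SE 0.18; edgeR, adjusted p = 0.838), or -0.40 relative to the median gene. By chemistry CCND1 went opposite ways, at -0.018 with TFEA, 0.45 with iodoacetamide and -0.31 with OsO4, of which edgeR called 0 and whose difference it did not call. With iodoacetamide it had 24.99 and 24.1 CPM under DO and 29.1 and 37.1 under IH, and with OsO4 43.6 and 42.96 under DO and 33.8 and 35.9 under IH. Without TMM, CCND1 was called higher (0.60, edgeR adjusted p = 0.00429), while its distance from the median gene stayed at -0.40. With intronic reads added it was called lower (-0.68, edgeR adjusted p = 0.00129), as were MKI67 (-1.03, adjusted p = 0.000125) and CCNB1 (-0.87, adjusted p = 7.62e-05). Library totals then held intronic reads too, which were a larger part under IH, so the zero point can differ. Distances from the median gene of that run are not given here.

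Without s4U, PLK1, CDC20, TOP2A and CCNA2 were called in the same directions and AURKA was not, against a background of 72.1% of all genes (41.4% higher, 30.7% lower, median log2 0.43). These unlabelled libraries are separate from the labelled ones, with 1 per chemistry and handling. PLK1 had 357, 321 and 358 CPM under DO and 93.8, 66.9 and 91.5 under IH, in the order TFEA, iodoacetamide, OsO4. CDC20 had 226, 172 and 222 CPM under DO and 50.1, 57.5 and 60.7 under IH. Both genes were lower under IH in each chemistry, with log2 differences of -2.05 (SE 0.17; edgeR, adjusted p = 2.39e-09) and -1.88 (SE 0.21; adjusted p = 1.11e-07). TOP2A had 80.4, 86.8 and 90.9 CPM under DO and 629, 637 and 598 under IH. CCNA2 had 26.3, 49.6 and 32.6 CPM under DO and 99.3, 88.8 and 105 under IH. Both were higher under IH in each chemistry, by a log2 of 2.85 (SE 0.27; edgeR, adjusted p = 8.51e-09) and 1.48 (SE 0.26; adjusted p = 3.34e-05). The other 4 had small estimates that did not pass: AURKA -0.02, MKI67 0.10, CCNB1 -0.15 and CCND1 0.12. CCNB1 ran from -0.33 without the unlabelled iodoacetamide DO library to -0.063 without the unlabelled OsO4 IH library. Without an unlabelled library its chemistry left the average, so each of these values covers the other chemistries only. With intronic reads added, CCND1 (-0.78, edgeR adjusted p = 0.0103) and CCNB1 (-0.61, adjusted p = 0.0277) were called lower. There too the library totals changed, so the zero point can differ. The difference between the labelled and unlabelled handling contrasts was tested as an interaction in edgeR. edgeR called 0 of 12449 genes for this interaction. Among the members PLK1 came nearest (interaction log2 -0.67, SE 0.21; edgeR, adjusted p = 0.526).

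**Figure D2:**
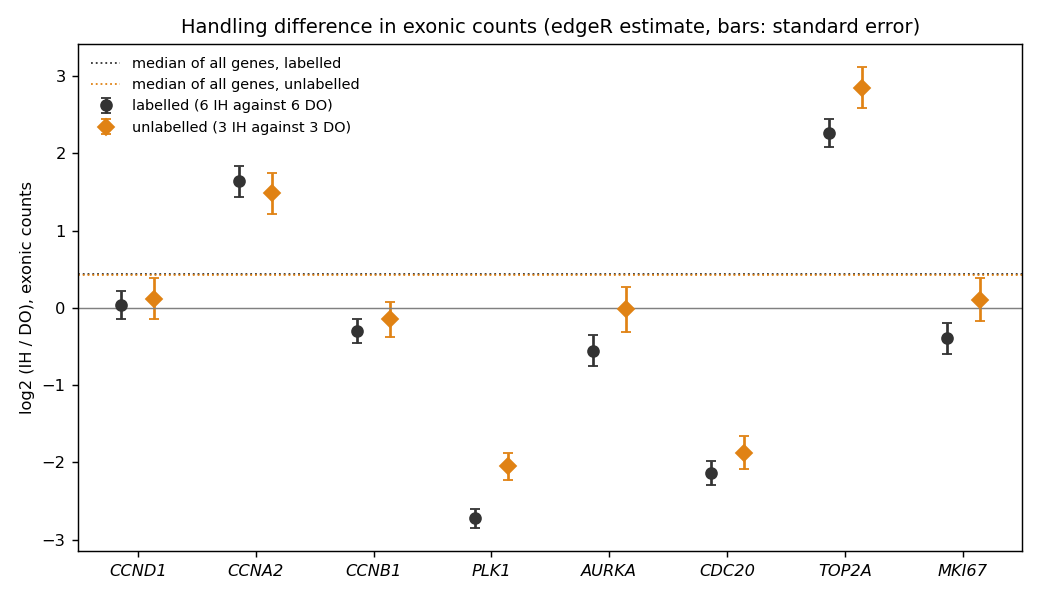
Log2 of IH over DO in exonic counts (vertical axis) for each member (horizontal axis), as edgeR estimates with bars for the standard error, in 6 against 6 labelled libraries and 3 against 3 unlabelled libraries, with dotted lines at the medians of all genes (0.44 and 0.43). PLK1 and CDC20 lie far below the other members, and TOP2A and CCNA2 far above, with and without s4U.

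Whether s4U itself moved these genes was asked by setting labelled against unlabelled libraries within a handling. Under DO, edgeR called 0 of the 8 members, against 0.217% of all genes (0.12% higher and 0.0964% lower, 27 genes in all, while 1352 had an unadjusted p under 0.05 and DESeq2 called 44). PLK1 came nearest: its 6 labelled DO libraries (479 to 607 CPM) all lay above the 3 unlabelled ones (321 to 358 CPM), as for 2.34% of all genes. The log2 difference of labelled over unlabelled PLK1 was 0.65 (SE 0.15; edgeR, adjusted p = 0.0598). It passed with DESeq2 (0.72, adjusted p = 0.00573). With edgeR and 1 library left out at a time, the PLK1 estimate ran from 0.61 to 0.80, and PLK1 passed in 5 of 18 runs. Leaving out an unlabelled library also took its chemistry out of the averaged contrast. Such runs, here and below, cover the other chemistries only. TOP2A passed only without TFEA DO replicate 2 among the leave-outs (0.92, adjusted p = 0.0321). Under DO the estimates of CCNB1 (0.46), AURKA (0.56), TOP2A (0.61) and MKI67 (0.52) were also above 0 with unadjusted p under 0.05, and that of CCNA2 was -0.54. The test had no term for replicate number. By TFEA, iodoacetamide and OsO4, TOP2A had 238, 155 and 137 CPM in replicate 1 and 89.5, 94.9 and 88.4 in replicate 2. Unlabelled it had 80.4, 86.8 and 90.9. MKI67 had 1459, 1484 and 1218, then 552, 764 and 598, and unlabelled 781, 723 and 613. In CCNB1 and AURKA no replicate number was higher in every chemistry. Leaving out 1 library at a time gave 0.40 to 0.74 for CCNB1 (without the unlabelled TFEA and OsO4 DO library) and 0.39 to 0.92 for AURKA (without the same libraries). It gave 0.40 to 0.92 for TOP2A (without the unlabelled TFEA DO library and without TFEA DO replicate 2), and 0.32 to 0.83 for MKI67 (without OsO4 DO replicate 1 and without TFEA DO replicate 2). Leaving out 1 library at a time, the CCNA2 estimate ran from -0.70 (without OsO4 DO replicate 1) to -0.14 (without the unlabelled iodoacetamide DO library), with -0.33, -0.31 and -0.29 without DO replicate 2 of TFEA, replicate 1 of iodoacetamide and replicate 2 of OsO4. Under IH, edgeR called 0 of the 8 members, against 0.225% of all genes (0.177% higher and 0.0482% lower, 28 genes in all, while 918 had an unadjusted p under 0.05 and DESeq2 called 21). There the estimates ran from -0.38 for CCNA2 to 0.31 for CCNB1, and PLK1 stood at -0.02.

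An exonic read counted as converted when it carried 1 or more T-to-C mismatches. The converted share of a gene is used as a readout of RNA made during the 2 h of label. It also moved with handling and alignment. Members differed in T positions per read, from 25.1 for MKI67 to 40.9 for CCNB1, which was not corrected for. Shares of different genes are thus not amounts of new RNA. In the unlabelled libraries the converted share ran from 0% to 8.51% over the 8 members, which is the background of mismatches from other sources. In labelled libraries, edgeR's test of converted against unconverted reads called 4 of the 6 members that could be tested, all higher under IH, against a background of 70.6% of 4084 genes higher and 0.0245% lower. The median gene had a log2 odds ratio of 1.07, and its converted share went from 12.5% under DO to 24.7% under IH. CCND1 and CCNA2 had fewer than 20 exonic reads in some labelled library and were not tested.

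PLK1 had a converted share of 11.4% to 27.5% (median 17.2%) under DO and 27.7% to 42.1% (median 33.1%) under IH. MKI67 had 12.9% to 21.6% (median 15.96%) under DO and 24.1% to 29.5% (median 26.2%) under IH. In both genes every IH library was above every DO library, which held for 31.2% of all genes. The log2 odds ratio was 1.35 for PLK1 (SE 0.25; edgeR, adjusted p = 3.59e-06) and 0.88 for MKI67 (SE 0.18; adjusted p = 3.71e-05). CCNB1 had 9.77% to 34.7% (median 20.8%) under DO and 25.8% to 42.6% (median 35.0%) under IH. Its ranges overlapped, and the log2 odds ratio of 1.11 passed (SE 0.31; edgeR, adjusted p = 0.00171). These members thus stood on both sides of the median gene.

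TOP2A had the lowest median converted shares of the members: 4.15% to 13.1% (median 9.17%) under DO and 10.4% to 15.7% (median 13.2%) under IH. Its mean share was at the 30.0 percentile of genes under DO and at the 13.0 percentile under IH. The log2 odds ratio was 0.60 (SE 0.25; edgeR, adjusted p = 0.0302), and the call ended in 6 of 12 leave-outs: without TFEA DO replicate 2 (0.57), TFEA IH replicate 1 (0.59), iodoacetamide DO replicate 2 (0.44), iodoacetamide IH replicate 2 (0.51), OsO4 DO replicate 2 (0.50) or OsO4 IH replicate 1 (0.55). It also ended with HISAT2 VL reads (0.28, adjusted p = 0.186), and with same-numbered libraries summed over chemistries (0.63, adjusted p = 0.0877).

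AURKA had 11.1% to 44.4% (median 17.4%) under DO and 19.0% to 40.7% (median 30.3%) under IH. Its ranges overlapped and its log2 odds ratio of 0.78 did not pass (SE 0.45; edgeR, adjusted p = 0.112). The AURKA estimate was 1.14 without OsO4 DO replicate 1 and 0.48 without OsO4 DO replicate 2. With intronic reads added it was 1.85 and passed (edgeR, adjusted p = 2.13e-05). Intronic reads were a larger part of AURKA reads under IH and more often converted than exonic ones, so that value mixes both shares. CDC20 had 12.4% to 20% (median 17.0%) under DO and 5.88% to 30.0% (median 22.7%) under IH. The lowest CDC20 value, in iodoacetamide IH replicate 1, was 3 of 51 reads, with a 95% Wilson interval of 2.02% to 15.9% that covers counting error only. The log2 odds ratio of CDC20 was 0.38 (SE 0.32; edgeR, adjusted p = 0.284), and leaving out 1 library at a time gave 0.021 (without iodoacetamide IH replicate 2, adjusted p = 0.985) to 0.56 (without iodoacetamide IH replicate 1, adjusted p = 0.147). It was 0.25 without OsO4 DO replicate 2. CDC20 thus fell in total count much as PLK1 did, while only PLK1 passed in the converted share, and the difference between these genes was not tested.

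CCND1 had the highest median converted shares of the 8 under both handlings, from 42.9% to 57.9% (median 52.1%) under DO and 48.4% to 76.3% (median 57.1%) under IH. At least 42.9% of its exonic reads were thus converted in every labelled library, whichever the handling. CCNA2 had 0% to 54.2% (median 21.2%) under DO and 25% to 33.6% (median 32.5%) under IH. Its 0% was 0 of 10 reads, which allows a share of up to 30.0% (3 counts of the total). With a minimum of 10 reads, chosen after seeing the data, neither passed: the log2 odds ratio was 0.58 for CCND1 (edgeR, adjusted p = 0.235) and 0.11 for CCNA2 (adjusted p = 0.821).

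**Figure D3:**
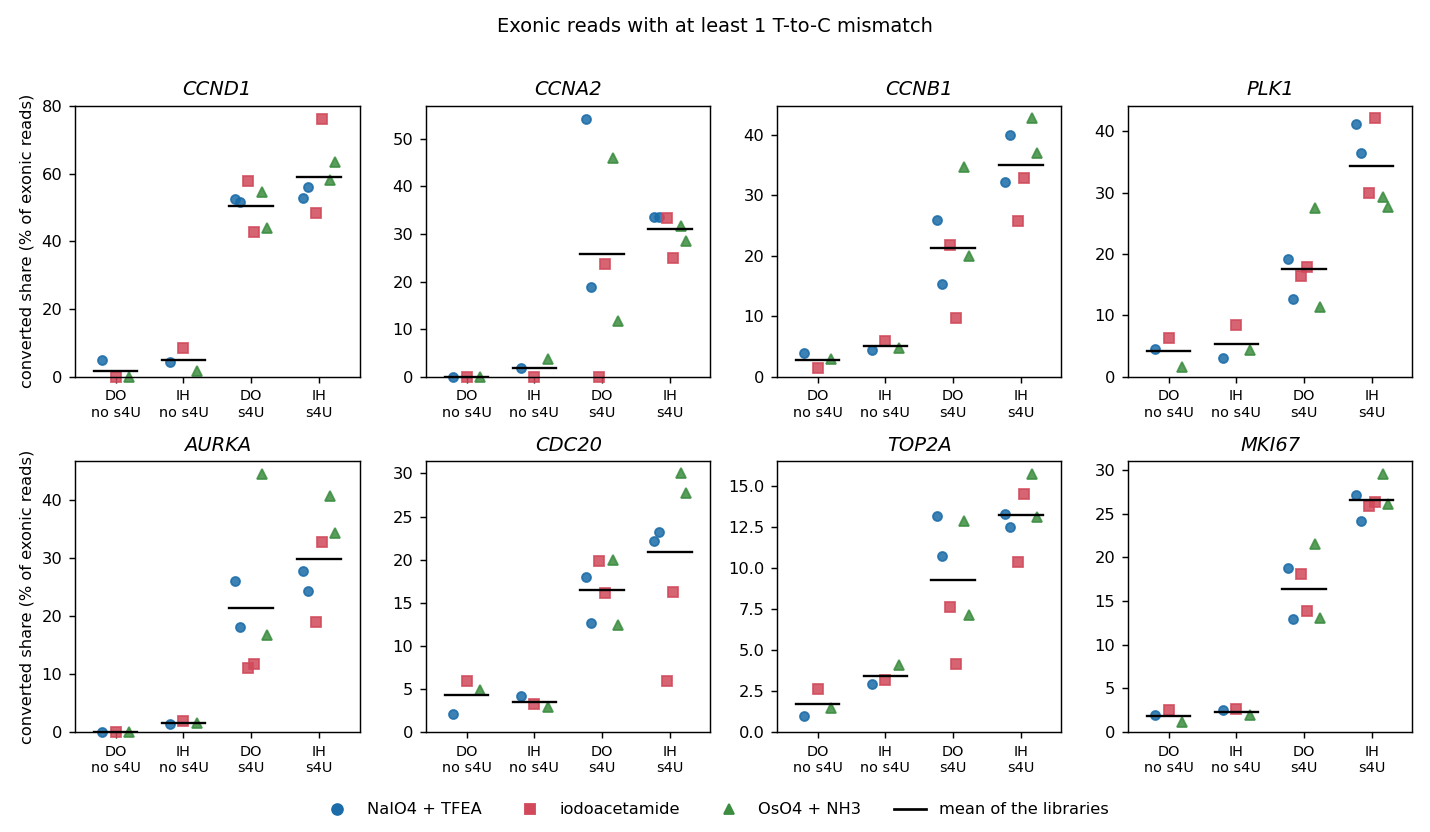
Converted share of exonic reads in percent (vertical axis, from 0) of each member in the 18 libraries, grouped by handling and label, with marker shape and colour for the chemistry and a bar at the mean. Unlabelled libraries stay at or below 8.51%, PLK1 and MKI67 are higher in every labelled IH library than in every labelled DO library, and CCND1 is already high under DO.

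Intronic reads are used here as a stand-in for RNA that is not yet spliced, and their number depends on the alignment. Over all genes their part was lower with STAR D than with HISAT-3N in each labelled library, and by more under DO. Iodoacetamide DO replicate 1 had 35.2% with HISAT-3N and 12.7% with STAR D, and TFEA IH replicate 1 had 43.5% and 38.9%. The values below are from HISAT-3N unless named otherwise. The odds of an intronic against an exonic read were compared between handlings with edgeR for the 7 members with enough reads, and 5 were called: PLK1, AURKA, MKI67 and CCNB1 higher and TOP2A lower under IH. The background was 78.5% of 5092 genes, 77.9% higher and 0.648% lower, with a median log2 odds ratio of 1.58. For PLK1 intronic reads were 0.697% to 2.82% of its reads (median 2.01%) under DO and 6.45% to 17.2% (median 13.6%) under IH. For AURKA they were 4.08% to 28.0% (median 10.3%) under DO and 37.5% to 52.6% (median 45.6%) under IH. In neither kinase did the groups overlap, as was so for 53.2% of all genes with IH higher. The log2 odds ratios of 2.93 for PLK1 (SE 0.32; edgeR, adjusted p = 8.90e-09) and 2.77 for AURKA (SE 0.39; adjusted p = 5.18e-07) were above that of the median gene. The odds are relative to exonic reads, which in PLK1 were fewer under IH. The log2 odds ratio was 1.21 for MKI67 (SE 0.31; edgeR, adjusted p = 0.00115) and 0.91 for CCNB1 (SE 0.31; adjusted p = 0.00912), both below the median gene. MKI67 came above it without TFEA DO replicate 2 (1.63, with a median gene of 1.56) and without OsO4 DO replicate 1 (1.71, with 1.68). MKI67 had a median intronic share of 1.54% under DO and 3.22% under IH, and CCNB1 had 7.84% and 16.8%.

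TOP2A went against most genes in this alignment: its intronic share was 11.6% to 22.9% (median 16.1%) under DO and 6.44% to 10.9% (median 8.08%) under IH, without overlap, which in this direction held for 0.196% of all genes (log2 odds ratio -1.06, SE 0.25; edgeR, adjusted p = 0.000413). This direction depended on the alignment. With STAR D the medians were 8.48% and 9.73% (0.25, adjusted p = 0.269), and with HISAT2 VL they were 4.39% and 8.98% (0.70, adjusted p = 0.0188). The 6 labelled DO libraries together held 153 intronic TOP2A reads with HISAT-3N, 99 with STAR D and 63 with HISAT2 VL. The median was higher under IH in each of the other 6 alignments of the deposited table, of which STAR D and HISAT2 VL were tested. In STAR D single libraries still went the other way, such as labelled TFEA replicate 2 with 12.6% under DO and 9.29% under IH. CDC20 (medians 6.61% and 8.39%; log2 odds ratio 0.34, edgeR adjusted p = 0.406) and CCND1 (22.7% and 23.9%; -0.12, adjusted p = 0.801) did not pass. CCNA2 was not tested, with medians of 17.5% and 15.1%.

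**Figure D4:**
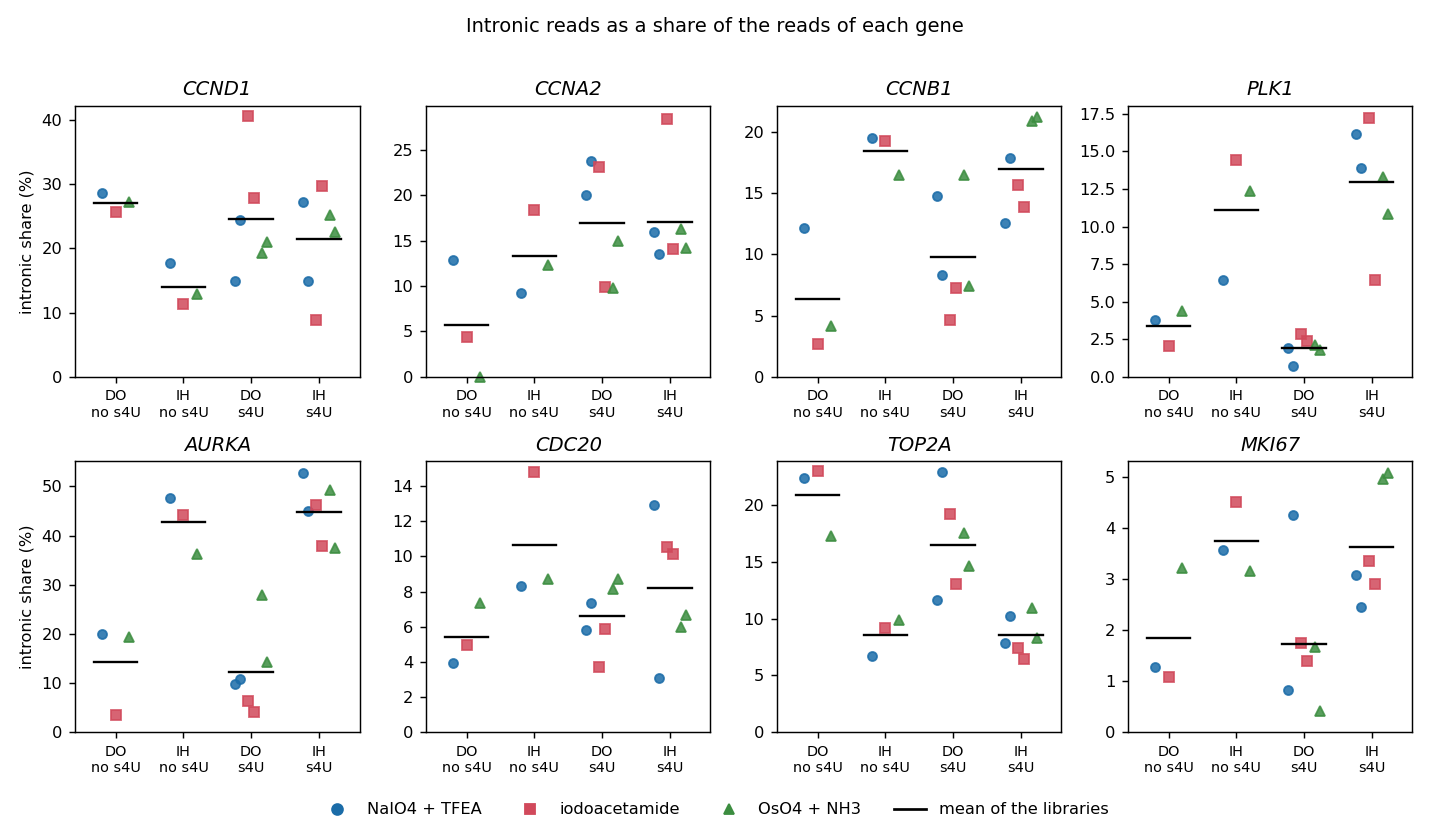
Intronic reads in percent of all reads of each member (vertical axis, from 0) in the 18 libraries, grouped by handling and label, with marker shape and colour for the chemistry and a bar at the mean. PLK1 and AURKA are higher in every labelled IH library than in every labelled DO library, and TOP2A is lower, in the HISAT-3N alignment.

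The intronic reads were themselves more often converted than the exonic reads. In the 6 labelled IH libraries the intronic share of converted reads was above the exonic one in 6 of 6 for CCNA2, CCNB1, PLK1, AURKA, TOP2A and MKI67, in 5 for CDC20 and in 4 for CCND1. Under DO it was so in 6 of 6 libraries for CCND1, PLK1 and AURKA, in 5 for CCNB1, in 4 for CDC20, TOP2A and MKI67, and in 3 for CCNA2. For AURKA the median converted share of intronic reads was 77.5% under DO and 88.0% under IH, for PLK1 66.8% and 85.6%, and for TOP2A 15.1% and 54.2%. In the 3 genes this exceeds the exonic median under the same handling. These shares rest on few reads, as few as 2 intronic reads of MKI67 in a DO library, and were not tested.

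The authors' deposited table gives first-order degradation rate constants for 5 of the 8 members, with no stated time unit. AURKA, CCNA2 and CCND1 are not listed in the authors' deposited table, and CDC20 is not listed there for iodoacetamide. A higher constant means a shorter-lived mRNA in the authors' model. The members that passed at an adjusted p under 0.05 in the authors' deposited table were 2 of 5 with TFEA, 3 of 4 with iodoacetamide and 3 of 5 with OsO4, all higher under IH. Of all transcripts in the authors' deposited table, 52.6%, 48.9% and 48.1% passed higher and 0.679%, 1.44% and 0.442% lower. Over all transcripts of the authors' deposited table the median constant was 0.0430 under DO and 0.102 under IH with TFEA, 0.0354 and 0.0833 with iodoacetamide, and 0.0411 and 0.0998 with OsO4.

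In the authors' deposited table PLK1 had constants of 0.0746 under DO and 0.207 under IH with TFEA (the authors' adjusted p = 0.000119), 0.0764 and 0.171 with iodoacetamide (0.0120), and 0.0653 and 0.132 with OsO4 (0.0306). It was thus called in each chemistry. CCNB1 had 0.108 and 0.195 with TFEA (the authors' adjusted p = 0.0665), 0.0477 and 0.131 with iodoacetamide (0.0121), and 0.0803 and 0.208 with OsO4 (0.0119) in the authors' deposited table. For MKI67 the authors' deposited table gives 0.106 and 0.172 with TFEA (the authors' adjusted p = 0.00609), 0.0981 and 0.151 with iodoacetamide (0.0240), and 0.104 and 0.143 with OsO4 (0.186). For these genes every listed constant, under both handlings, was above the median of the same column of the authors' deposited table. CDC20 had 0.0750 and 0.110 with TFEA (the authors' adjusted p = 0.292) and 0.0501 and 0.112 with OsO4 (0.0472) in the authors' deposited table.

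TOP2A had the lowest constant of the listed members in every column of the authors' deposited table. The values there were 0.0441 and 0.0480 with TFEA (the authors' adjusted p = 0.751), 0.0145 and 0.0364 with iodoacetamide (0.0609), and 0.0201 and 0.0493 with OsO4 (0.0857). Under IH it stood at the 16.8, 15.8 and 17.5 percentile of transcripts in the authors' deposited table with TFEA, iodoacetamide and OsO4. The constants come from the same libraries as the converted shares above and are no second measurement of them.

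**Figure D5:**
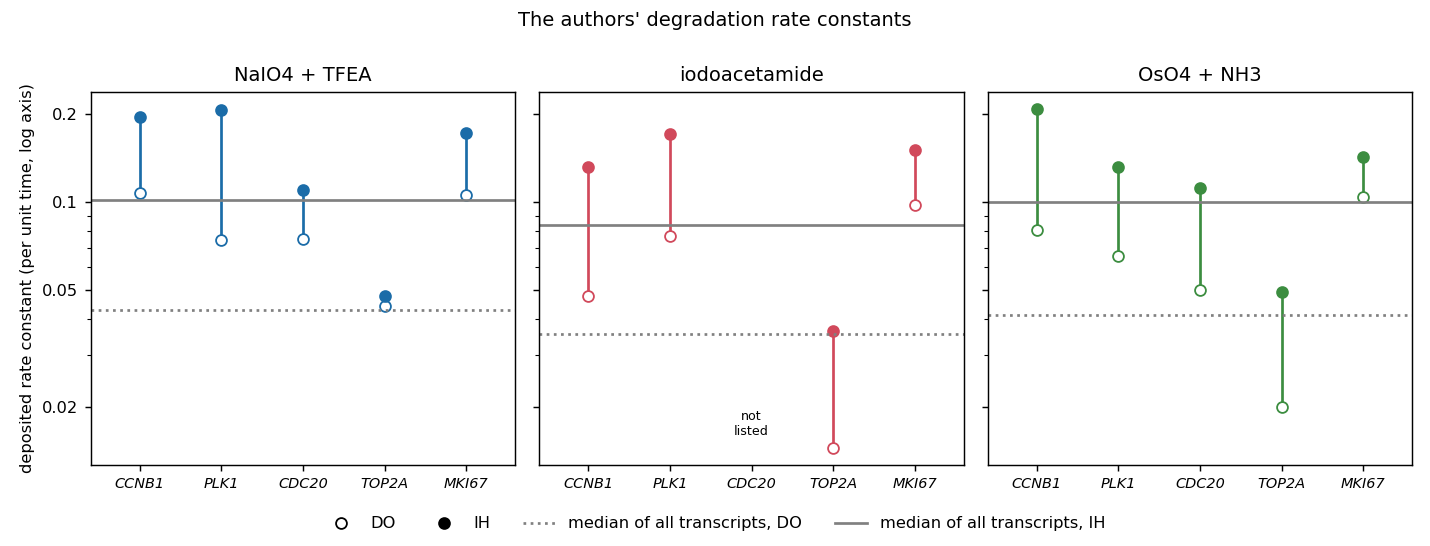
Rate constants of the authors' deposited table (vertical axis, log scale, no time unit stated) for the 5 listed members (horizontal axis), with 1 panel per chemistry, open circles for DO and filled circles for IH, and lines at the medians of all transcripts. PLK1, CCNB1 and MKI67 lie above the median of their handling in each chemistry, and TOP2A lies below the IH median in each.

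The wider cell-cycle machinery was described from 2 lists in the authors' deposited table. Of 74 other genes of G2 and mitosis, 25 were listed with TFEA, 23 with iodoacetamide and 27 with OsO4 in the authors' deposited table, and 15, 12 and 13 of these passed with a higher constant under IH and 0 with a lower one. Their median log2 ratio of IH over DO in the authors' deposited table was 1.10, 0.89 and 1.17, beside 1.18, 1.14 and 1.19 for all transcripts. Of 54 genes of G1 and S phase, 24, 23 and 26 were listed in the authors' deposited table, 14, 13 and 13 passed higher and 0 lower, and the median log2 ratios were 1.35, 1.62 and 1.17. The counts in both lists were thus close to the share of all transcripts called. As examples chosen after their values were seen, the authors' deposited table with TFEA gives 0.0917 under DO and 0.223 under IH for AURKB, the kinase of the chromosomal passenger complex (the authors' adjusted p = 0.00106). ESPL1, the separase that cleaves cohesin, had 0.0480 and 0.156 in the authors' deposited table with TFEA (the authors' adjusted p = 0.000484). CDC25A, a phosphatase that activates cyclin-dependent kinases, had 0.298 and 0.310 there, in the authors' deposited table, and did not pass (the authors' adjusted p = 0.867).

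The chemistries did not separate the members. Within IH, edgeR called 0 of the 6 tested members and 0 of 4084 genes for a difference in converted share between the chemistries, with 90 genes at an unadjusted p under 0.05. CDC20 came nearest of the members (edgeR, adjusted p = 0.992), with 5.88% and 16.2% converted reads with iodoacetamide, 22.2% and 23.2% with TFEA, and 30.0% and 27.8% with OsO4. The IH values of CDC20 with iodoacetamide were thus the lowest of the 6. The handling difference did not vary between chemistries for any gene after adjustment, in exonic counts, in converted shares or in intronic odds. A p that misses the threshold does not show that the chemistries act alike.

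The choice of alignment changed how many reads and conversions the members had. The main alignment was HISAT-3N, which allows for converted bases, and the deposited table also holds STAR and HISAT2 alignments under settings named D, ML and VL. With HISAT2 D, PLK1 had a pooled converted share of 14.5% over the 12 labelled libraries, against 21.0% with HISAT-3N, and the share was lower in 12 of 12 libraries for PLK1, CCNB1, CCND1, CDC20, MKI67 and TOP2A. For CCND1 the pooled share was 41.6% with HISAT2 D and 56.2% with HISAT-3N. PLK1 had 123% of the HISAT-3N reads with HISAT2 D, and with STAR D it had 126% of the reads at a pooled share of 18.6%. With HISAT2 VL reads were more numerous and the converted share differed by member. MKI67 had 112% of the HISAT-3N reads at a pooled share of 26.8% against 22.6%, higher in 12 of 12 libraries, and TOP2A had 115% at 16.4% against 13.1%, higher in 11. PLK1 had 127% of the reads, with a pooled share of 20.7% against 17.5% under DO but 31.9% against 34.3% under IH. For CCND1 the pooled labelled share was 55.4% against 56.2%. In unlabelled libraries, which carry no s4U, the pooled share of all 8 members was higher with HISAT2 VL than with HISAT-3N under both handlings. It was 7.91% against 1.95% under DO and 7.92% against 2.39% under IH for MKI67, and 6.23% against 1.61% and 7.52% against 3.25% for TOP2A. For CCND1 it was 10.5% against 2.35% under DO and 11.1% against 4.42% under IH. The rise in the unlabelled share of MKI67 and TOP2A was thus no smaller than that in their pooled labelled share. The settings codes are not defined in the labels.

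Across genes, the handling difference also varied with the number of T positions per read. Over 12449 genes the mean number of T per exonic read and the log2 of IH over DO had a Spearman rho of 0.669 in labelled and 0.645 in unlabelled libraries, across genes that are not independent replicates and share libraries and base composition. From the lowest to the highest quintile of genes by T, the median labelled log2 difference went from -1.35 to -0.76, 0.44, 1.38 and 2.17. PLK1, with 34.4 T per read, and CDC20, with 31.6, belonged to a quintile with a median of -0.76 and were themselves at -2.72 and -2.14. MKI67 had 25.1 T per read, the fewest of the members, in the quintile with a median of -1.35, and stood at -0.40. TOP2A (38.0 T per read) and CCND1 (36.4) were in the quintile with a median of 0.44, and stood at 2.27 and 0.04. CCNA2 (39.1), AURKA (39.6) and CCNB1 (40.9) were in the quintile with a median of 1.38, and of these only CCNA2 was above it, at 1.64. Within its quintile PLK1 was at the 0.321 percentile of the log2 differences, CDC20 at the 4.30, TOP2A at the 87.2 and MKI67 at the 77.4. CCNB1 and AURKA were at the 13.4 and 10.8 percentile, and CCND1 and CCNA2 at the 40.02 and 57.6. The middle 50% of genes in the quintile of PLK1 ran from -1.47 to 0.35, and in that of TOP2A from -0.70 to 1.54. The part of T content in the differences was not tested.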

How the data were processed

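Per the labels' protocols, RNA of HEK 293T cells was extracted with Trizol, treated with DNase, chemically converted and sequenced from low-input, strand-specific libraries. The authors deposited a table of counts: reads per library, alignment, gene, intronic flag and number of T-to-C mismatches. The submitters' processing notes name cutadapt, HISAT2, STAR, HISAT, Picard, HTSeq, DESeq2 and GRCh38, with no versions. How reads that fit several genes were counted is not given in the sources used here. The authors also deposited bakR rate constants, used here as a score with no time unit, with their log2 fold change and adjusted p-value, per the labels. That log2 value runs as IH over DO: its largest gap to the ratio computed from both constants was 0.352.

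For each gene, exonic HISAT-3N reads were added up, and filterByExpr kept 12449 of 24678 genes. These were fitted with edgeR 4.0.16 (R 4.3.3) over 12 groups after TMM scaling. The 18 libraries share 1 estimate of the spread, because 6 groups hold a single library. Converted and intronic shares were tested on read counts, each library having its own term, for genes that had 20 or more reads in each of the 12 labelled libraries. P-values were adjusted by Benjamini-Hochberg over all genes tested. Reads naming no gene entered no test. All 8 members are described, whatever their change. The members and lists were chosen with earlier results of these data known. DESeq2 1.42.0, other alignments, filters, scalings and leave-outs were tried as alternatives. The 10 libraries of 5 other chemistries were not analysed here. Duplicates of a group differed beyond sampling noise, with a chi-square of 2.13 to 8.68 per degree of freedom.

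Wilson intervals at 95% and limits from a count of 0 cover counting error only.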

Additional observations from a re-analysis of the deposited data

Results flagged for a closer look

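Among 48 groups of 6 libraries checked for a single outlying value, 2 held one, and chance alone flags about 1 in 20 groups. Both depended on the alignment, here HISAT-3N. The intronic share of CCNA2 in iodoacetamide replicate 1, labelled IH, was 28.4% of its reads, while the other 5 labelled IH libraries ran from 13.5% to 16.3%. With STAR D this library had 15.8%, beside 15.5% in OsO4 IH replicate 1. With HISAT2 VL it had 16.5%, beside 10.3% in TFEA IH replicate 1. The intronic share of MKI67 in TFEA replicate 2, labelled DO, was 4.25%, while the other 5 labelled DO libraries ran from 0.421% to 1.74%. With STAR D that library had 0.805%, below the 2.17% of iodoacetamide DO replicate 1, and with HISAT2 VL it had 0 intronic MKI67 reads.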

How the results depend on the processing

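The calls of PLK1, CDC20, TOP2A and CCNA2 in exonic counts between handlings kept their direction and stayed under an adjusted p of 0.05 in every alternative run, labelled and unlabelled. Over all values of single members, 982 alternatives kept direction and side of the threshold, 33 came to pass it, 10 no longer passed and 57 changed sign. Of the 8 members, 8 were called between labelled handlings with exonic and intronic reads together in place of 5. In the main run 80.6% of all genes were called for this contrast. The shares of all genes called in the other runs are not given here. The counts of members called in those runs therefore do not set the members apart. For label under DO in place of 0, 1 was called with DESeq2, 3 without a filter on low counts, 1 with HISAT2 VL, and 0 to 2 when libraries were left out in turn. For label under DO, 0.217% of all genes were called in the main run. The shares in the other runs of this section are not given here, so their counts of members do not set the members apart. Same-numbered libraries of different handlings showed no shared deviation from their group means (r from -0.013 to 0.029 across genes, 9 pairs of groups), nor did those of IH (0.0091 to 0.026, 3 pairs), but those of DO did (0.195 to 0.237, 3 pairs). This is a hint from the data that DO numbers share a source, and p-values would then be too small. With the replicate number as a replicate block, 7 members were called in exonic counts, 4 in converted share and 5 in intronic odds. That fit holds labelled libraries only, which without the block also gave 7, as did no filter and HISAT2 VL. CCNB1 and MKI67 were -0.48 and -0.49 with the block and -0.49 and -0.59 with labelled libraries only. With same-numbered libraries summed over chemistries, chosen after seeing the data, 6, 3 and 5 were called. For PLK1 under DO, no filter gave 0.73 and HISAT2 VL 0.68. The values that changed sign, with the cause not tested, were these. For labelled handling, CCND1 was -0.076 without the filter, -0.68 with intronic reads, -0.021 with HISAT2 VL, -0.15 with the replicate block, -0.15 with labelled libraries only and -0.22 with same-numbered libraries summed. Without TMM, CCNB1 was 0.26 and MKI67 0.13. Their distances from the median gene were then -0.73 and -0.86, beside -0.74 and -0.84 in the main run. For unlabelled handling, CCND1 was -0.78 with intronic reads, -0.0078 with STAR D and -0.039 with HISAT2 VL. There CCNB1 was 0.29 and AURKA 0.43 without TMM, AURKA 0.030 with DESeq2 and MKI67 -0.53 with intronic reads. The distances of CCNB1 and AURKA from the median gene were -0.56 and -0.43 without TMM, beside -0.58 and -0.44 in the main run. For label under DO, CCND1 was -0.070 with STAR D. For label under IH, PLK1 was 0.0092 with DESeq2, 0.015 without the filter and 0.0015 with HISAT2 VL, CDC20 was 0.029 with STAR D and 0.080 with HISAT2 VL, and with intronic reads TOP2A was -0.0062 and MKI67 -0.012. In intronic odds CDC20 was -0.28 with HISAT2 VL, and TOP2A was 0.25 with STAR D and 0.70 with HISAT2 VL. Without an unlabelled library, a contrast that used it covered the other chemistries only. When libraries were left out in turn, the ranges were -0.16 to 0.092 for CCND1 in labelled handling. In unlabelled handling they were -0.087 to 0.26 for CCND1, -0.17 to 0.17 for AURKA and -0.086 to 0.16 for MKI67. For label under IH they were -0.18 to 0.14 for PLK1, -0.18 to 0.15 for AURKA and -0.041 to 0.082 for MKI67, and in intronic odds -0.60 to 0.094 for CCND1 and -0.14 to 0.59 for CDC20. Depth limits CCNA2, CCND1 and AURKA most, with 10 to 94 exonic reads in a labelled DO library.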
